A study of Mus musculus with 15 samples.

Results

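The genes described here are 43 chaperone and stress-response genes measured by RNA sequencing in mouse cerebellum. They were chosen by name from the 24420 gene symbols of the count table, and all 43 passed the filter on low counts. The endoplasmic reticulum (ER) set holds 26 genes of the unfolded protein response, and the cytosolic set holds 17 heat shock genes. The 2 sets were kept apart and compared over 3 groups of 5 libraries.

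The first group, called WT here, is wild type FVB/nJ at 9 weeks of age. The second, called 82Q, carries Atxn1[82Q] on FVB/nJ at 9 weeks. The third, called 82Q_M120A, has the genotype Atxn1[82Q],CalphaLoxM120A on a mixed c57Bl/6J and FVB/nJ background at 8 weeks. Both mutant groups therefore share Atxn1[82Q], ataxin-1 with an expanded glutamine tract, the protein behind spinocerebellar ataxia type 1, which the design text calls a knockin. CalphaLoxM120A is an allele of the catalytic alpha subunit of protein kinase A, and the series title names the phosphorylation of ataxin-1 by that kinase in Purkinje cells as its subject. No group here has the kinase allele without Atxn1[82Q]. Kinase allele, strain and age change together in 82Q_M120A, so their shares in any difference from that group cannot be told apart. Neither the promoter of Atxn1[82Q] nor the cells in which the kinase allele acts are stated in the labels. The labels do not say that replicates are separate animals, so the spread between libraries may be in part technical.

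Proteins that enter the secretory pathway fold in the ER with the help of the HSP70 family member BiP, the HSP90 family member GRP94, lectin chaperones and disulfide isomerases. When unfolded protein builds up, the sensors IRE1, PERK and ATF6 start the unfolded protein response. ATF6 and spliced XBP1 raise the ER chaperones, while PERK slows translation and raises ATF4, which in turn acts on genes such as Ddit3, Atf3 and Trib3. The ATF4 branch is shared with other stresses, among them amino acid shortage. In the cytosol, the transcription factor HSF1 raises HSP70, HSP110, HSP90, J proteins and small heat shock proteins. Purkinje cells, the large output neurons of the cerebellar cortex, have an extensive ER, and expanded ataxin-1 is known to be handled by the cytosolic HSP70 and J protein system.

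Part of the ER set carries a shared promoter element, and the matches are shown because they split the set into genes with and without this classical control element. The ER stress response element, CCAAT and CCACG with 9 bases of any kind between them, was searched on both strands in the 250 bases upstream of the RefSeq start site (GRCm38.p6). Of 26 ER genes 23 had a promoter entry, and 8 of these (34.8%) held the element. It was found in 0.13% of 27025 genes in the same table and in 0 of the 13 cytosolic genes with an entry. The stretches below are 30 bases long and read 5′ to 3′ on the strand of the gene. Capitals mark the element, which begins with CGTGG and ends with ATTGG where it lies in reverse. All 30 bases of the Hspa5 stretch are in annotated exons, past the GENCODE start of the gene at 34771970.
Hspa5, chr2:34772020-34772049, plus strand: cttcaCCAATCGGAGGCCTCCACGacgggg
Hsp90b1, chr10:86705632-86705661, minus strand: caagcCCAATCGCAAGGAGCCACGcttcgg
Hsp90b1, chr10:86705527-86705556, minus strand: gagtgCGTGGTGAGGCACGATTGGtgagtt
Dnajc3, chr14:118937822-118937851, plus strand: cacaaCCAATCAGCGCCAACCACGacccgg
Creld2, chr15:88819515-88819544, plus strand: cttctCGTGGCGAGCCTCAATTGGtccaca
Calr, chr8:84847069-84847098, minus strand: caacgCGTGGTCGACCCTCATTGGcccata
Canx, chr11:50325794-50325823, minus strand: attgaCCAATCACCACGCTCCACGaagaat
Pdia6, chr12:17266486-17266515, plus strand: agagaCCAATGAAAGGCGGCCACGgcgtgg
Syvn1, chr19:6046527-6046556, plus strand: cgcaaCCAATCGGCGGTAGCCACGggaaca

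Wider context is given for Dnajc3 and Creld2, whose 200 bases upstream of the start hold no annotated exon and which are described again among the chaperones.
Dnajc3, chr14:118937732-118937931, plus strand: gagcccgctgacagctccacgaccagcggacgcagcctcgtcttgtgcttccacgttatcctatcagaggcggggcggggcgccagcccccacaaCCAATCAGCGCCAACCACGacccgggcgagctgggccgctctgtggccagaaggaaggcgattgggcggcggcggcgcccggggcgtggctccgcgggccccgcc
Creld2, chr15:88819446-88819645, plus strand: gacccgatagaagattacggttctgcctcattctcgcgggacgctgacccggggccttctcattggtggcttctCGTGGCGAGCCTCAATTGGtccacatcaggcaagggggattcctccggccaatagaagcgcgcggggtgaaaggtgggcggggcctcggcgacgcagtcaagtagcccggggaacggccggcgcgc

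Other elements were rarer. The second ER stress element, ATTGG and CCACG with 1 base between them, was present in 1 of the 23 ER genes, Herpud1, against 0.037% of all genes. An ATF4-type element, TGATG and AA with 1 base between them, was found in 2 of 23, Atf3 and Herpud1 (8.7%), against 3.91% of all genes. A heat shock element, the blocks GAA, TTC and GAA with 2 bases between blocks, or TTC, GAA and TTC likewise, was present in 2 of 13 cytosolic genes against 0.514% of all genes. These 2 genes, Hspd1 and Hspe1, face away from each other and overlap at their starts, and both matches come from the same bases. The stretch printed for Hspe1 lies within Hspd1 (chr1:55077835-55088243), and all 30 of its bases are in annotated exons. A match is a description of the letters and does not show that a factor bound there. Capitals again mark the element, in reverse for the ATF4-type element.
Herpud1, second ER element, chr8:94386368-94386397, plus strand: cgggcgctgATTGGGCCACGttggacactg
Herpud1, ATF4-type element, chr8:94386306-94386335, plus strand: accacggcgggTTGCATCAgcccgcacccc
Atf3, ATF4-type element, chr1:191183425-191183454, minus strand: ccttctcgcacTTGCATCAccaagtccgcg
Hspe1, heat shock element, chr1:55088051-55088080, plus strand: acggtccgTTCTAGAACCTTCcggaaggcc

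Depth ran from 38.3 to 99.4 mega counts per library, so even the scarcest gene of the 43, Trib3, was counted in each library. Counts at Atxn1 did not separate 82Q from WT (log2 fold change 0.09 ± 0.06, edgeR adjusted p = 0.308), so they do not check the labels. Prkaca, the gene of the kinase subunit, was lower in 82Q_M120A than in WT (-0.21 ± 0.03, edgeR adjusted p = 5.1e-05). The 6 Purkinje cell markers were present in every library, and all 6 were lower in both mutant groups than in WT. Their summed level was 8920 to 10190 CPM (counts per mega counts of TMM-scaled library size) in WT, 3138 to 3938 in 82Q and 3177 to 4481 in 82Q_M120A. Microglial markers summed to 66.87 to 76.69 CPM in WT and 108.2 to 128.1 CPM in 82Q_M120A, with 111 to 121.5 in 82Q. Of 5 oligodendrocyte markers 4 were higher in 82Q and 5 in 82Q_M120A, each against WT. In whole cerebellum, fewer cells of a type and less RNA per cell cannot be told apart. Choroid plexus markers varied between libraries within groups. The 8 markers, none at 0, summed to 1650 to 2817 CPM in WT-1, WT-2, WT-3, WT-5, 82Q-2, 82Q-5 and 82Q_M120A-1 and to 23.03 to 307.8 CPM in the others. None of the 8 passed the test in any comparison.

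Between genes, levels were compared per kilobase of exon. In WT the constitutive cytosolic chaperones were the highest of the 43: Hsp90ab1 at 433.8 ± 14.7, Hspa8 at 348.3 ± 36.9 and Hsp90aa1 at 289.7 ± 14.9 CPM per kilobase (SD, n = 5). The highest ER genes were Hsp90b1 at 132.8 ± 8.8 and Calr at 125.2 ± 9.3, whose spreads overlap. The 6 lowest of the 43 were Hspa1b at 4.25 ± 0.62, Edem1 at 2.96 ± 0.13, Ern1 at 1.89 ± 0.18, Hspa1a at 1.18 ± 0.11, Atf3 at 0.66 ± 0.08 and Trib3 at 0.359 ± 0.087 CPM per kilobase. From here on levels are CPM without length correction, and each gene is compared only with itself across groups.

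In 82Q against WT none of the 14 ER chaperones and isomerases was called, and 3 other ER genes moved. A gene is called where its adjusted p from the edgeR quasi-likelihood test over all 16808 tested genes is under 0.05. Eif2ak3, the PERK sensor kinase, and Atf3, a stress-induced transcription factor, rose, while Sel1l, a scaffold of the ER-associated degradation complex, fell. That is 2 ER genes higher and 1 lower of 26 (11.5%), beside 18.7% of all tested genes called in this comparison, 8.63% higher and 10.1% lower. The median log2 difference of the 26 was 0.01, the same as over all tested genes, 0.01. The share of called ER genes was thus below the background. Of the 17 cytosolic genes 0 were called, and 0 had an unadjusted p under 0.05. DESeq2 and limma-voom also called 0 of them.

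In 82Q_M120A against WT more members moved, most of them down. Of 26 ER genes 10 were lower and 5 higher (57.7% called), beside 36.4% of all tested genes, 17.8% lower and 18.6% higher. The median of the 26 was -0.13 against 0.01 over all genes, and 19 of the 26 differences were negative. Of 17 cytosolic genes 5 were lower and 1 higher (35.3% called), with a median of -0.09 and 15 negative differences. The cytosolic share was thus close to the background and the ER share above it. In 82Q_M120A against 82Q, 6 ER genes were lower and 1 higher (26.9%), beside 18.9% of all tested genes, 8.63% lower and 10.3% higher. In that comparison 1 cytosolic gene was lower and 1 higher (11.8%). Median differences there were -0.10 for the ER set and -0.06 for the cytosolic set, with -0.003 over all tested genes. The comparisons share their groups, so their counts are not independent of each other.

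**Figure D1:**
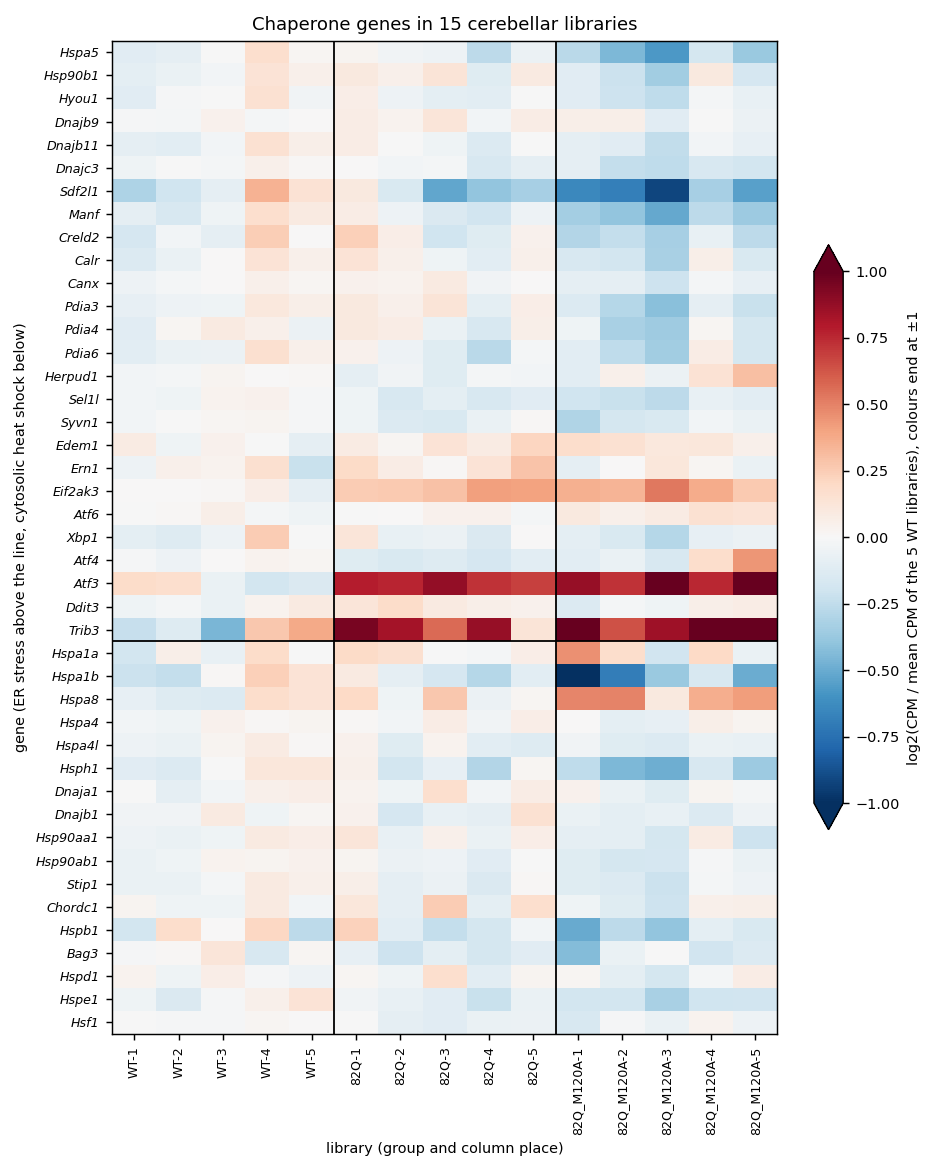
Level of the 43 genes in each of the 15 libraries, as the log2 of the CPM over the mean CPM of the 5 WT libraries (red higher, blue lower, colours end at ±1), with genes in rows by role and libraries in columns by group. Atf3 and Eif2ak3 are above WT in all 10 mutant libraries, most ER chaperones are blue in 82Q_M120A, and Trib3, at 3.637 and 4.405 CPM in 82Q_M120A-4 and 82Q_M120A-5, is past the end of the scale there.

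Among the chaperones of the ER lumen, 6 of 9 were lower in 82Q_M120A than in WT and 0 were higher, beside 17.8% lower and 18.6% higher of all tested genes. In 82Q against WT 0 of 9 were called, beside 18.7%. Hspa5 (chr2:34771970-34777547, plus strand, GENCODE on mm10) encodes BiP, the main ER HSP70 and the usual readout of the unfolded protein response. Its level in the 5 WT libraries was 327.0, 331.8, 352.6, 395.6 and 358.2 CPM. In 82Q it was 359.0, 345.2, 341.3, 293.9 and 339.3 CPM, a range that overlaps WT. In 82Q_M120A it was 293.3, 258.0, 236.9, 312.8 and 273.7 CPM, and each of these values lay below all WT values. The mean fell from 353.1 ± 27.2 in WT to 274.9 ± 29.6 in 82Q_M120A (SD, n = 5), a log2 difference of -0.36 ± 0.07 (SE, edgeR adjusted p = 0.000881). Against 82Q, at 335.7 ± 24.6 CPM, it fell by 0.29 on the log2 scale (adjusted p = 0.010). The 82Q difference from WT was -0.07 with a 95% interval of -0.225 to 0.0797.

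Manf encodes a secreted ER-resident protein that is induced with the unfolded protein response (chr9:106838312-106891979, minus strand). Its libraries read 50.09, 47.77, 51.75, 59.98 and 56.65 CPM in WT. In 82Q they read 56.05, 51.28, 48.29, 46.65 and 51.33, and in 82Q_M120A 42.01, 40.48, 37.29, 44.42 and 41.46. The 82Q_M120A libraries lay below every library of both other groups. The log2 difference was -0.37 ± 0.06 from WT (1.29-fold lower, edgeR adjusted p = 0.000182) and -0.30 ± 0.06 from 82Q (adjusted p = 0.00261). In 82Q against WT it was -0.07 ± 0.06 (adjusted p = 0.497). Annotated genes on the opposite strand cover 4.71% and 4.14% of its exon bases.

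Dnajc3, a J protein partner of BiP also known as p58IPK, was tightly measured. It stood at 104.4, 107.2, 106.2, 111.6 and 108.4 CPM in WT and at 107.8, 105.3, 106.4, 96.2 and 101.0 CPM in 82Q. The 82Q_M120A libraries gave 100.8, 91.31, 89.97, 96.01 and 94.54 CPM, without overlap with WT and with some overlap with 82Q. It fell by 0.19 from WT on the log2 scale (SE 0.04, edgeR adjusted p = 0.000589) and by 0.13 from 82Q (adjusted p = 0.0185). The second call was lost without 82Q-1 (adjusted p = 0.0518) and without 82Q_M120A-3. Sdf2l1, an ER protein that works with BiP and its J proteins, had the largest fall of the chaperones. Its WT libraries read 10.39, 11.17, 12.07, 16.32 and 14.22 CPM, those of 82Q 13.73, 11.52, 8.97, 9.748 and 10.21, and those of 82Q_M120A 8.221, 7.973, 6.782, 10.21 and 8.81. Every 82Q_M120A library was below WT, the difference being -0.61 ± 0.14 (1.53-fold, edgeR adjusted p = 0.00285). Its difference from 82Q, -0.37 ± 0.14, did not pass (adjusted p = 0.0793).

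Among the other lumen chaperones, calls were lost in several alternatives or were absent in the main fit. Creld2, a secreted protein induced by ER stress, averaged 22.24 ± 2.504 CPM for WT, 22.44 ± 2.71 for 82Q and 18.86 ± 1.34 for 82Q_M120A (SD, n = 5). It fell by 0.24 from WT (edgeR adjusted p = 0.0352) and by 0.25 from 82Q (adjusted p = 0.0458). The call against WT was lost without WT-4, WT-5, 82Q_M120A-1, 82Q_M120A-2, 82Q_M120A-3 or 82Q_M120A-5 (adjusted p up to 0.0886). The call against 82Q was lost without WT-3, 82Q-1, 82Q-2, 82Q-5 or the same 4 libraries of 82Q_M120A (up to 0.121). Hyou1, the large HSP70-like nucleotide exchange factor of the ER, was 105.4 ± 7.1 CPM in WT and 96.08 ± 6.30 in 82Q_M120A. Its fall of 0.13 sat at the threshold (adjusted p = 0.0482) and was lost without WT-2, WT-3, WT-4, 82Q-2, 82Q-5, 82Q_M120A-1, 82Q_M120A-2 or 82Q_M120A-3 (adjusted p up to 0.127). Hsp90b1, the ER HSP90 called GRP94, was at 535.3 ± 35.5, 554.8 ± 36.6 and 484.5 ± 56.0 CPM in WT, 82Q and 82Q_M120A. It was not called (adjusted p = 0.120 against WT and 0.0613 against 82Q), though it was below the threshold in both without 82Q_M120A-4 (0.0126 and 0.00626). DESeq2 called it against 82Q (adjusted p = 0.0290). An opposite-strand gene, 1810014B01Rik, covers 10.3% of its exon bases. Dnajb9, a J protein induced by IRE1 and XBP1, was at 50.56 ± 0.91, 52.54 ± 2.06 and 50.2 ± 2.7 CPM, and Dnajb11 at 61.33 ± 4.62, 60.46 ± 3.16 and 56.88 ± 3.19 CPM. Neither was called in any comparison.

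The lectin chaperones hold glycoproteins during folding, and the disulfide isomerases form and rearrange their disulfide bonds. Pdia3, the isomerase that works with the lectin chaperones, was the clearest of these 5. It read 216.0, 220.9, 222.2, 246.0 and 238.4 CPM in WT. The 82Q libraries gave 244.8, 236.5, 250.2, 214.1 and 239.7 CPM, and the 82Q_M120A libraries 208.1, 188.1, 171.4, 215.4 and 196.5 CPM. All 82Q_M120A values were below WT, and 1 of them, in 82Q_M120A-4, was above the lowest 82Q value. It fell by 0.22 from WT (SE 0.06, edgeR adjusted p = 0.00554) and by 0.28 from 82Q (SE 0.06, adjusted p = 0.00266). Canx, calnexin, stood at 399.4 ± 10.9, 407.5 ± 12.5 and 373.7 ± 16.9 CPM. It was lower in 82Q_M120A than in 82Q (-0.13, adjusted p = 0.0226) and than in WT (-0.10, adjusted p = 0.0475). Without 82Q_M120A-3 neither call held (0.0625 and 0.136), and the call against WT was also lost with scaling by library size only (0.297), without the low-count filter (0.0629), in a fit of only these groups (0.0504) and without WT-2, WT-3, WT-4, WT-5, 82Q-5, 82Q_M120A-1, 82Q_M120A-2 or 82Q_M120A-5 and with the choroid plexus level as a covariate (0.0690).

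Calr, calreticulin, at 360.4 ± 26.8, 366.0 ± 23.5 and 325.6 ± 31.7 CPM, Pdia4, at 48.18 ± 2.77, 48.3 ± 3.6 and 42.82 ± 4.97 CPM, and Pdia6, at 89.31 ± 6.82, 84.52 ± 6.88 and 80.34 ± 9.13 CPM in WT, 82Q and 82Q_M120A, were not called in the main fit. All 3 had negative differences in 82Q_M120A against WT. Without 82Q_M120A-4, the library in which Calr, Pdia4 and Pdia6 were highest in their group, Calr and Pdia4 passed against both other groups and Pdia6 passed against WT. Their adjusted p were then 0.0128, 0.0176 and 0.0213 against WT. Summed, the 14 chaperones and isomerases came to 2428 ± 142 CPM for WT, 2437 ± 128 for 82Q and 2144 ± 180 for 82Q_M120A, with no test of the sums.

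**Figure D2:**
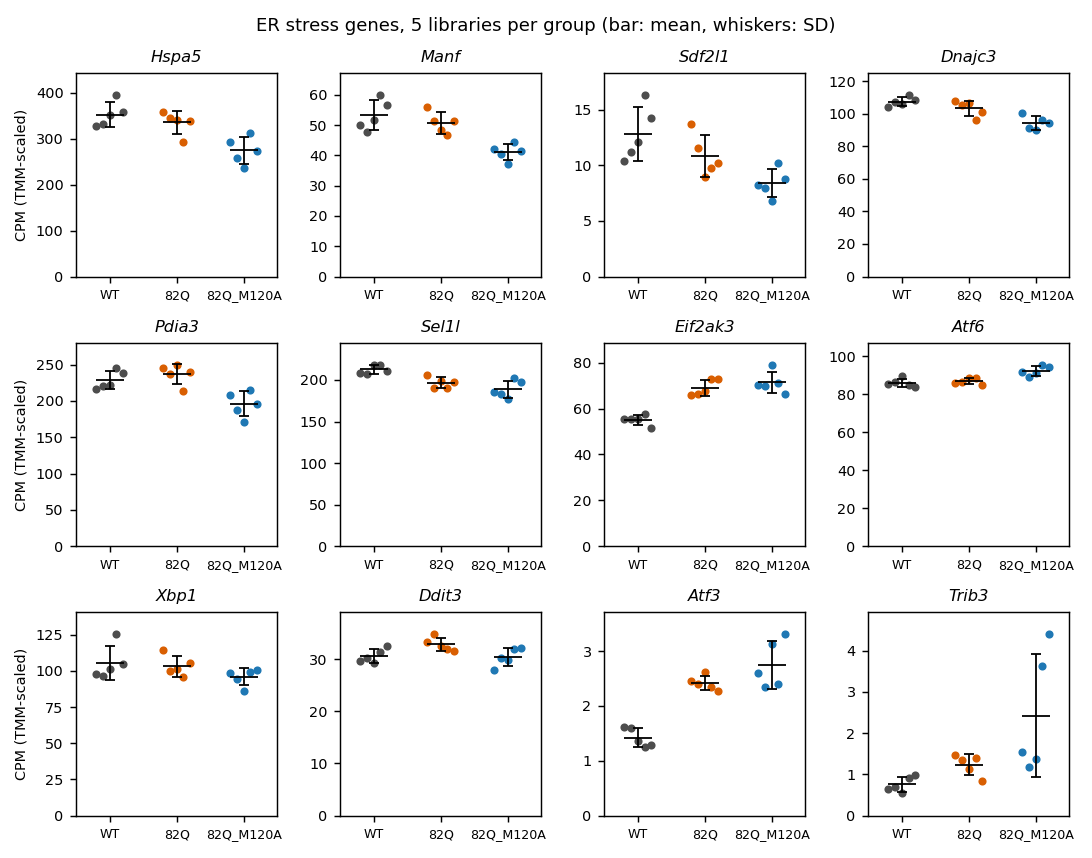
CPM of 12 ER genes in WT, 82Q and 82Q_M120A, with 1 point per library, a bar at the mean of 5 and whiskers of 1 SD. The 82Q_M120A points of Hspa5, Manf, Dnajc3, Sdf2l1 and Pdia3 lie below all WT points, those of Atf3 and Eif2ak3 lie above them in both mutant groups, and those of Trib3 spread from 1.184 to 4.405 CPM.

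The chaperones moved as a block from library to library. Of the 14 chaperones and isomerases, 12 were highest in WT-4 among the WT libraries and 11 were lowest in WT-1. Within 82Q, 10 were highest in 82Q-1 and 12 lowest in 82Q-4. Within 82Q_M120A, 12 were highest in 82Q_M120A-4 and all 14 lowest in 82Q_M120A-3. WT-4 was the WT library with little choroid plexus, at 37.72 CPM of summed markers against 1650 to 2627 CPM in the other WT libraries. In the mutant groups, libraries with little choroid plexus stood at both ends of the chaperone order. The markers summed to 43.35 CPM in 82Q-1 and 37.42 in 82Q_M120A-4, where most chaperones were highest. They summed to 88.84 CPM in 82Q-4 and 28.6 in 82Q_M120A-3, where most were lowest. With the choroid plexus level as a covariate Hspa5 still fell from WT by 0.36 (edgeR adjusted p = 0.00451), Manf by 0.41 (adjusted p = 0.000385) and Pdia3 by 0.22 (adjusted p = 0.0237). Canx lost its call against WT with that covariate (-0.10, adjusted p = 0.0690).

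The genes with the ER stress response element were compared with the matched ER genes without it, as a description. In 82Q_M120A against WT 5 of the 8 with the element were lower and 0 higher, all 8 differences were negative, and the median was -0.15. Of all tested genes 17.8% were lower and 18.6% higher in that comparison. Of the 15 without it 3 were lower and 4 higher, with a median of -0.01. Against 82Q 4 of 8 were lower with the element and 1 of 15 without it, beside 8.63% of all tested genes. In 82Q against WT 0 of 8 and 3 of 15 were called, beside 18.7%. The element sits mainly in the chaperones, so element and role are joined in this split. The matched chaperones and isomerases without it, Dnajb9, Dnajb11, Sdf2l1, Pdia3 and Pdia4, also had negative differences in 82Q_M120A against WT. Of these, Sdf2l1 (-0.61) and Pdia3 (-0.22) were called lower and the others were not called. Manf, Hyou1 and Atf6 had no promoter entry and are in neither count. In 82Q_M120A against WT Manf and Hyou1 were called lower and Atf6 higher.

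ER-associated degradation moves misfolded proteins to the cytosol for destruction, and its 4 members split. Sel1l (chr12:91806043-91849157, minus strand) holds the ubiquitin ligase complex together. It was at 208.7, 206.7, 218.3, 218.6 and 211.3 CPM in WT. The 82Q libraries were at 206.2, 190.2, 198.9, 190.5 and 197.1 CPM, all just below WT, and the 82Q_M120A libraries at 185.1, 182.6, 177.6, 201.8 and 197.6 CPM. It fell by 0.11 in 82Q (SE 0.04, edgeR adjusted p = 0.0328) and by 0.17 in 82Q_M120A (SE 0.04, adjusted p = 0.00112), both against WT. The call in 82Q was lost without any 1 of 5 libraries, WT-3, WT-4, 82Q-2, 82Q-4 or 82Q-5, with an adjusted p of up to 0.0687. The 2 mutant groups did not differ at the threshold (-0.06 ± 0.04, adjusted p = 0.294).

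Syvn1, the ubiquitin ligase that Sel1l holds, was at 72.09 ± 1.139, 68.39 ± 3.20 and 65.46 ± 4.79 CPM and was lower in 82Q_M120A than in WT (-0.14 ± 0.04, edgeR adjusted p = 0.0190). Edem1, a lectin that picks misfolded glycoproteins for degradation, went the other way. It was at 19.07 ± 0.87, 20.56 ± 1.02 and 20.73 ± 0.70 CPM, higher in 82Q_M120A than in WT by 0.12 (adjusted p = 0.0401), a call lost without WT-2, WT-4, WT-5, 82Q-4, 82Q_M120A-1, 82Q_M120A-2, 82Q_M120A-3 or 82Q_M120A-4 (up to 0.118). Herpud1, an ER membrane protein of the same pathway that carries both the second ER element and the ATF4-type element, was at 68.51 ± 1.06, 65.87 ± 2.01 and 72.18 ± 8.42 CPM and was not called. Its spread in 82Q_M120A came from 82Q_M120A-4 and 82Q_M120A-5, at 75.92 and 84.55 CPM, with the other 3 libraries at 63.51 to 71.09.

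Of the 3 sensors, the PERK gene rose in both mutant groups. Eif2ak3 (chr6:70844515-70905245, plus strand) read 55.26, 55.29, 55.48, 57.71 and 51.68 CPM in WT. In 82Q it read 65.74, 66.17, 67.65, 73.02 and 72.77 CPM, and in 82Q_M120A 70.42, 69.73, 79.2, 71.33 and 66.2 CPM. No mutant library came down to the WT range. The rise from WT was 0.33 ± 0.05 in 82Q (1.25-fold, edgeR adjusted p = 4.3e-05) and 0.37 ± 0.05 in 82Q_M120A (1.29-fold, adjusted p = 4.7e-06). Between the mutant groups the difference was 0.05 ± 0.05 (adjusted p = 0.513). Both rises passed in every alternative run, the one with the choroid plexus covariate included. A share of 8.05% of its exon bases lies under an annotated gene on the opposite strand, Gm43292, and whether reads were counted by strand is not stated, so reads there cannot be assigned to either.

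Atf6, the sensor that is cut in the Golgi to become a transcription factor, was at 85.57, 86.61, 89.55, 84.84 and 83.57 CPM in WT and at 85.68, 86.47, 88.45, 88.67 and 84.98 CPM in 82Q. In 82Q_M120A it was at 91.99, 88.87, 91.05, 95.66 and 94.43 CPM, above all 82Q libraries and overlapping WT. It rose by 0.10 ± 0.03 from WT (edgeR adjusted p = 0.00656) and by 0.09 ± 0.03 from 82Q (adjusted p = 0.0281). Without 82Q_M120A-4 and 82Q_M120A-5, an alternative chosen after seeing the data, both missed the threshold (0.0717 and 0.201). The call against 82Q was also lost without 82Q-1, 82Q-5, 82Q_M120A-4 or 82Q_M120A-5 alone, with an adjusted p of up to 0.0771. Ern1, the IRE1 sensor, was at 15.43 ± 1.496, 17.04 ± 1.24 and 15.4 ± 0.9 CPM and passed in none of the comparisons (edgeR adjusted p of 0.136 to 0.955), except in 82Q against WT with scaling by library size only (0.0448).

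The factors downstream of the sensors did not move together. Xbp1, the factor of the IRE1 branch and itself raised by ATF6, was at 98.17, 96.49, 101.4, 125.5 and 104.9 CPM in WT. It was at 114.6, 99.99, 101.1, 95.48 and 105.5 CPM in 82Q and at 98.28, 94.7, 86.35, 99.55 and 100.9 CPM in 82Q_M120A. The groups overlap, and no comparison passed (edgeR adjusted p = 0.832 for 82Q against WT, 0.136 and 0.302 for 82Q_M120A against WT and 82Q). With the choroid plexus covariate its fall from WT to 82Q_M120A passed (-0.20, adjusted p = 0.0489). Counts per gene do not separate its spliced form. Ddit3, the factor CHOP that is linked to cell death after lasting ER stress, read 29.71, 30.22, 29.35, 31.43 and 32.54 CPM in WT. It read 33.36, 34.83, 32.55, 31.93 and 31.6 CPM in 82Q and 27.89, 30.23, 29.82, 31.88 and 32.22 CPM in 82Q_M120A. Its difference in 82Q was 0.10 with a 95% interval of 0.00899 to 0.194, which did not pass over all genes (adjusted p = 0.123) except with scaling by library size only (0.0141).

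Atf3 (chr1:191170296-191218039, minus strand) is a factor induced by ATF4 and by injury in neurons. It was scarce, at 1.613, 1.594, 1.36, 1.254 and 1.283 CPM in WT. All 5 libraries of 82Q were higher, at 2.452, 2.409, 2.617, 2.349 and 2.28 CPM. Those of 82Q_M120A were at 2.593, 2.34, 3.125, 2.397 and 3.311 CPM, also above WT throughout. The rise was 0.76 ± 0.11 in 82Q (1.7-fold, edgeR adjusted p = 8.2e-05) and 0.95 ± 0.11 in 82Q_M120A (1.93-fold, adjusted p = 3.4e-06), and both held in every alternative run. The mutant groups did not differ at the threshold (0.19 ± 0.11, adjusted p = 0.254). Of the 6 microglial markers 6 were higher in 82Q and 5 in 82Q_M120A, where the other was lower, and their part in the Atf3 difference was not tested.

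Trib3 (chr2:152337422-152344032, minus strand) encodes a pseudokinase raised by ATF4 and CHOP. It was at 0.650, 0.697, 0.557, 0.920 and 0.989 CPM in WT and at 1.471, 1.357, 1.129, 1.398 and 0.834 CPM in 82Q. In 82Q_M120A it was at 1.542, 1.184, 1.369, 3.637 and 4.405 CPM. The last 2 libraries stood above all 13 others, while the first 3 were near the 82Q libraries. The rise from WT to 82Q_M120A was 1.69 ± 0.36 (3.23-fold, edgeR adjusted p = 0.00172). Without 82Q_M120A-4 and 82Q_M120A-5 it was 0.87 (adjusted p = 0.00384). The difference of 82Q from WT, 0.72 ± 0.36, was not called (adjusted p = 0.195), but it was without those 2 libraries (0.72, adjusted p = 0.0097) and in a fit of only these groups (adjusted p = 0.0126). Not called either was the difference between the mutant groups, 0.97 ± 0.34 (adjusted p = 0.0574), which DESeq2 called (0.0152) and which came to 0.14 without the same 2 libraries (adjusted p = 0.694).

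Atf4 itself showed the same 2 libraries. It was at 134.1 to 142.6 CPM in WT and at 124.0 to 129.2 CPM in 82Q, ranges that do not touch, yet the fit over all libraries did not call the difference (-0.13 ± 0.09, edgeR adjusted p = 0.324). It was called without 82Q_M120A-4 and 82Q_M120A-5 (-0.13, adjusted p = 0.00176) and in a fit of only WT and 82Q (-0.14, adjusted p = 0.00103). In 82Q_M120A it read 129.2, 133.2, 124.3, 157.2 and 188.9 CPM. With all libraries the difference from WT was 0.08 ± 0.09 (adjusted p = 0.531), and without 82Q_M120A-4 and 82Q_M120A-5 it was -0.11 (adjusted p = 0.0122), a change of direction. Among the ER genes outside the 26, 3 ATF4 targets were picked out after their values were seen. Chac1, which degrades glutathione, was at 11.15 and 14.45 CPM in those 2 libraries and at 3.742 to 4.504 CPM in the other 3 of the group. Asns, asparagine synthetase, was at 108.4 and 124.6 CPM against 66.67 to 69.99, and Sesn2, a stress-induced regulator of growth signalling, at 26.74 and 29.27 CPM against 10.87 to 12.02. Of the 14 ER chaperones and isomerases, 12 were highest in 82Q_M120A-4 within the group and 0 in 82Q_M120A-5. Sdf2l1, for one, was at 10.21 and 8.81 CPM in those 2 libraries and at 6.782 to 8.221 CPM in the other 3. The labels give no date or batch for these libraries, and their part in the Atf4 and Trib3 values beyond the recalculations above was not tested.

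**Figure D3:**
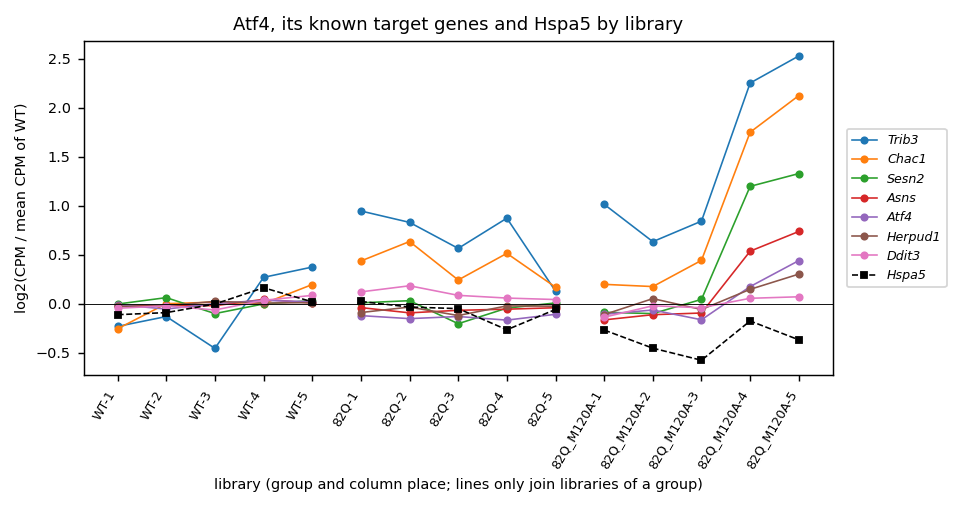
Log2 of the CPM over the mean CPM of WT for Trib3, Chac1, Sesn2, Asns, Atf4, Herpud1, Ddit3 and Hspa5 (black squares) in each of the 15 libraries, with lines joining libraries of a group for reading only. The first 6 genes are highest in 82Q_M120A-4 and 82Q_M120A-5, where Atf4 is at 157.2 and 188.9 CPM, while Hspa5, at 312.8 and 273.7 CPM in the same libraries, is below WT.

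Beyond the 26, the 33 other ER genes on the list were called about as often as all tested genes, of which 18.7%, 36.4% and 18.9% were called in the 3 comparisons. In 82Q against WT 3 were higher and 4 lower (21.2%), in 82Q_M120A against WT 3 higher and 7 lower (30.3%), and in 82Q_M120A against 82Q 2 higher and 4 lower (18.2%). The clearest were genes that were lower in both mutant groups. Vimp, now named Selenos, a selenoprotein of the degradation channel, fell from 74.78 ± 1.87 CPM in WT to 48.47 ± 2.97 in 82Q (-0.62 ± 0.04, edgeR adjusted p = 2.8e-09) and 46.76 ± 2.24 in 82Q_M120A. Sec61a1, the pore through which proteins enter the ER, fell from 109.1 ± 3.2 to 81.19 ± 1.08 and 81.46 ± 2.78 CPM (-0.43 ± 0.03 and -0.42 ± 0.03). Mlec, a lectin for newly made glycoproteins, fell in both steps, from 238.2 ± 9.5 in WT to 216.6 ± 11.7 in 82Q and 184.4 ± 4.8 CPM in 82Q_M120A. Dnajc10, a J protein with isomerase activity, was at 99.48 ± 2.195 and 98.18 ± 1.46 CPM in WT and 82Q and at 88.53 ± 2.13 in 82Q_M120A (-0.15 ± 0.02 from 82Q, adjusted p = 0.000391). Higher in 82Q_M120A than in 82Q were Ppp1r15b, a phosphatase subunit that reverses the PERK signal, by 0.16 (adjusted p = 0.0048), and Erlec1, a lectin of the degradation pathway, by 0.15 (adjusted p = 0.0107).

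No cytosolic gene was called in 82Q. Across its 17 genes the 95% intervals for 82Q against WT lay between -0.427, the lower bound of Hspa1b, and 0.309, the upper bound of Hspa1a. A p that misses the threshold does not show equal levels, and these bounds give the size of change the data allow. Hsf1, the master factor of the heat shock response, was at 55.14, 54.99, 54.91, 56.05 and 55.47 CPM in WT. It was at 55.14, 51.88, 51.18, 52.8 and 53.18 CPM in 82Q and at 49.41, 54.95, 52.88, 56.6 and 53.34 CPM in 82Q_M120A. No comparison passed (edgeR adjusted p of 0.194 to 0.788).

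Hspa8 (chr9:40800984-40810087, plus strand), the constitutive HSP70 called HSC70, was the one cytosolic gene that rose. It read 1417, 1370, 1365, 1689 and 1650 CPM in WT and 1722, 1455, 1802, 1440 and 1517 CPM in 82Q. In 82Q_M120A it read 2104, 2109, 1606, 1922 and 2002 CPM, with 4 of the 5 libraries above every other library and 82Q_M120A-3 inside the WT range. The rise was 0.38 ± 0.09 from WT (1.3-fold, edgeR adjusted p = 0.0028), and it passed in every alternative run. The rise of 0.30 ± 0.09 from 82Q (adjusted p = 0.0261) was lost without any 1 of 6 libraries, 82Q-2, 82Q-4, 82Q-5, 82Q_M120A-1, 82Q_M120A-2 or 82Q_M120A-5 (adjusted p up to 0.0651), with the choroid plexus covariate (0.0598) and without 82Q_M120A-4 and 82Q_M120A-5 together (0.0966).

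The inducible HSP70 genes Hspa1a and Hspa1b lie next to each other on chromosome 17 and are near-identical copies, so reads may be split between them or lost by the counting. Hspa1a was at 3.088, 3.643, 3.327, 3.972 and 3.502 CPM in WT, 4.007, 3.918, 3.5, 3.465 and 3.67 in 82Q, and 4.803, 3.959, 3.074, 4.023 and 3.353 in 82Q_M120A. Hspa1b was at 10.3, 10.09, 12.01, 14.09 and 13.13 CPM in WT, 12.68, 11.23, 10.63, 9.807 and 11.07 in 82Q, and 5.196, 7.388, 9.213, 10.66 and 8.456 in 82Q_M120A. Taken singly, Hspa1a was not called and Hspa1b was lower in 82Q_M120A than in WT (-0.54 ± 0.15, edgeR adjusted p = 0.0113). The ratio of Hspa1a to Hspa1b was 0.267 to 0.361 in all 10 FVB/nJ libraries and 0.334 to 0.397 in 3 of the mixed-strain libraries, but 0.924 in 82Q_M120A-1 and 0.536 in 82Q_M120A-2. The sum of both copies is not changed by a split, but reads lost by the counting would lower it. Whether such loss differed between the strains was not tested. The sum was 15.43 ± 1.96, 14.79 ± 1.27 and 12.03 ± 1.72 CPM in WT, 82Q and 82Q_M120A. It was lower in 82Q_M120A by 0.36 against WT (adjusted p = 0.00869) and by 0.30 against 82Q (adjusted p = 0.0419). Of the exon bases of Hspa1a 19.0% also lie under Gm20481 on the opposite strand.

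The HSP110 genes encode nucleotide exchange factors for HSP70. Hsph1 read 161.4, 158.7, 173.7, 188.7 and 188.2 CPM in WT, 180.3, 153.5, 164.8, 141.8 and 176.2 in 82Q, and 146.0, 127.5, 124.1, 155.9 and 135.7 in 82Q_M120A. Every 82Q_M120A library was below WT, and 82Q lay across both. It fell by 0.34 from WT (SE 0.08, edgeR adjusted p = 0.00263) in every alternative run. Against 82Q it fell by 0.24 (adjusted p = 0.0346), which was lost without any 1 of 6 libraries, 82Q-1, 82Q-3, 82Q-5, 82Q_M120A-2, 82Q_M120A-3 or 82Q_M120A-5 (up to 0.0851), with the choroid plexus covariate (0.0556) and in a fit of only the mutant groups (0.0526). Its relatives Hspa4, at 280.9 ± 7.1, 284.6 ± 10.5 and 277.7 ± 13.0 CPM, and Hspa4l, at 229.0 ± 9.4, 220.8 ± 13.3 and 215.8 ± 6.3 CPM, were not called.

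The J proteins Dnaja1, at 221.6 ± 9.5, 228.0 ± 13.7 and 217.6 ± 10.4 CPM, and Dnajb1, at 48.93 ± 1.95, 48.19 ± 4.30 and 46.13 ± 1.08 CPM in WT, 82Q and 82Q_M120A, present clients to HSP70 and were not called. Smu1, on the opposite strand, covers 7.05% of the exon bases of Dnaja1. Hsp90ab1, the constitutive HSP90, was at 1242, 1266, 1333, 1327 and 1337 CPM in WT, 1324, 1247, 1257, 1201 and 1298 in 82Q, and 1196, 1154, 1159, 1293 and 1243 in 82Q_M120A. The groups overlap, and the fall of 0.11 from WT to 82Q_M120A was at the threshold (edgeR adjusted p = 0.0466) and lost without WT-3, WT-4, WT-5, 82Q-5, 82Q_M120A-1, 82Q_M120A-2 or 82Q_M120A-3 (up to 0.112). Its inducible partner Hsp90aa1, at 1139 ± 59, 1156 ± 71 and 1067 ± 86 CPM, and the HSP90 cofactors Stip1, at 227.1 ± 11.3, 220.3 ± 12.5 and 210.7 ± 11.2 CPM, and Chordc1, at 71.02 ± 2.91, 74.83 ± 8.07 and 68.6 ± 5.4 CPM, were not called.

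Hspb1, the small heat shock protein HSP27, read 10.4, 13.36, 11.82, 13.6 and 9.865 CPM in WT, 13.86, 10.99, 10.02, 10.43 and 11.6 in 82Q, and 8.309, 9.851, 8.998, 11.04 and 10.6 in 82Q_M120A. Its fall of 0.28 from WT to 82Q_M120A (edgeR adjusted p = 0.0493) was lost without WT-2, WT-3, WT-4, 82Q-2, 82Q-4, 82Q-5, 82Q_M120A-1, 82Q_M120A-2 or 82Q_M120A-3 (up to 0.115). Bag3, a cochaperone that hands clients to autophagy, was at 18.11 ± 1.25, 16.49 ± 0.62 and 16.2 ± 1.8 CPM and was not called.

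The cytosolic list also holds 2 genes of mitochondrial proteins, the chaperonin Hspd1 and its lid Hspe1, which share a promoter region with the heat shock element printed above. Hspe1 was at 61.66, 57.31, 62.93, 65.57 and 69.59 CPM in WT, 61.88, 60.11, 58.74, 54.44 and 60.72 in 82Q, and 55.83, 55.95, 50.57, 55.1 and 55.61 in 82Q_M120A. All 82Q_M120A libraries lay below WT (-0.21 ± 0.05, edgeR adjusted p = 0.00177). Hspd1, at 175.0 ± 6.1, 177.1 ± 12.6 and 170.5 ± 11.5 CPM, was not called (-0.04 ± 0.05 in 82Q_M120A against WT, adjusted p = 0.581). The 2 genes overlap on opposite strands in 7.6% of the exon bases of Hspe1. The difference between the pair was not tested.

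**Figure D4:**
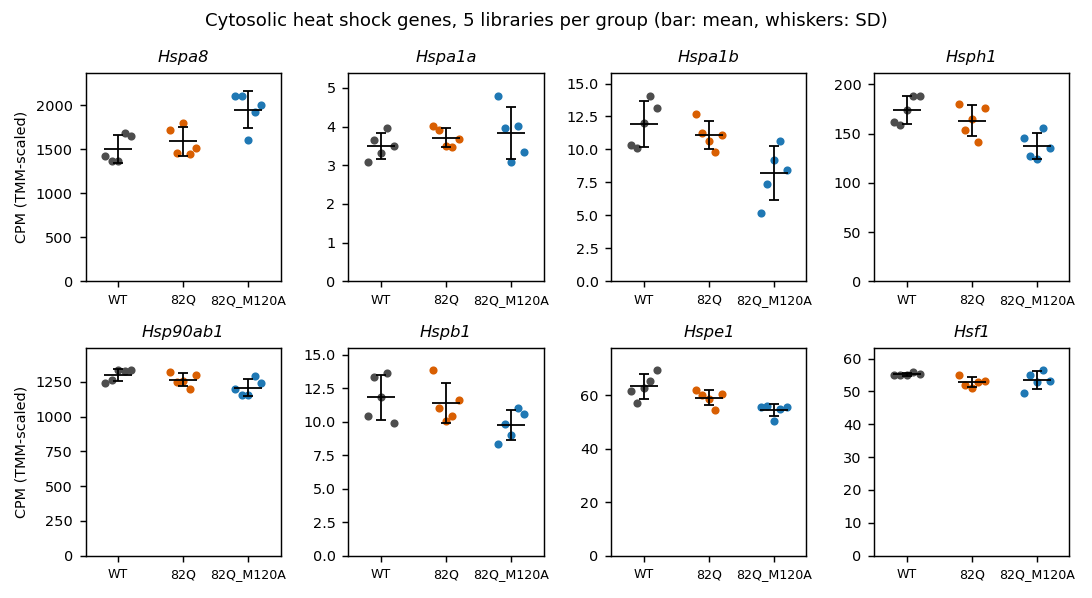
CPM of 8 cytosolic heat shock genes in WT, 82Q and 82Q_M120A, with 1 point per library, a bar at the mean of 5 and whiskers of 1 SD. Hspa8 is higher in 4 of the 5 82Q_M120A libraries than in any other, Hsph1 and Hspe1 are below WT in all 5, and Hsf1 stays between 49.41 and 56.6 CPM in all 15.

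The cytosolic list thus had an opposite pair in 82Q_M120A against WT, with Hspa8 higher by 0.38 and its exchange factor Hsph1 lower by 0.34. Because Hspa8 makes up a large share of the total, the summed level of the 17 went from 5530 ± 294 CPM in WT to 5580 ± 332 in 82Q and 5715 ± 317 in 82Q_M120A. Without Hspa8 the sum was 4032 ± 147, 3993 ± 189 and 3767 ± 186 CPM. These sums are given as description with no test.

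The 36 further cytosolic chaperone genes on the list gave called shares near the background against WT and below it between the mutant groups. In 82Q against WT 1 was higher and 7 lower (22.2%, beside 18.7% of all tested genes). In 82Q_M120A against WT 1 was higher and 10 lower (30.6%, beside 36.4%), and in 82Q_M120A against 82Q 0 were higher and 1 lower (2.78%, beside 18.9%). Hspa14, a ribosome-associated HSP70, fell from 73.56 ± 1.08 CPM in WT to 59.76 ± 1.43 in 82Q (-0.30 ± 0.03, edgeR adjusted p = 7.8e-07) and 58.93 ± 2.61 in 82Q_M120A. Bag1, an HSP70 exchange factor, fell from 108.7 ± 4.6 to 95.56 ± 3.79 and 95.21 ± 2.84 CPM. The J protein Dnaja4 fell from 53.55 ± 3.01 to 46.46 ± 2.65 and 43.64 ± 2.30 CPM. Hspa2, another HSP70, was the gene that rose in 82Q, from 16.21 ± 1.31 to 20.16 ± 1.44 CPM (0.31 ± 0.07, adjusted p = 0.00465). Hspb8, a small heat shock protein that acts with Bag3, averaged 27.13 ± 2.41 CPM for WT, 22.1 ± 2.0 for 82Q and 18.72 ± 1.90 for 82Q_M120A. It was the gene that passed between the mutant groups (-0.24 ± 0.08, adjusted p = 0.0382).

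**Figure D5:**
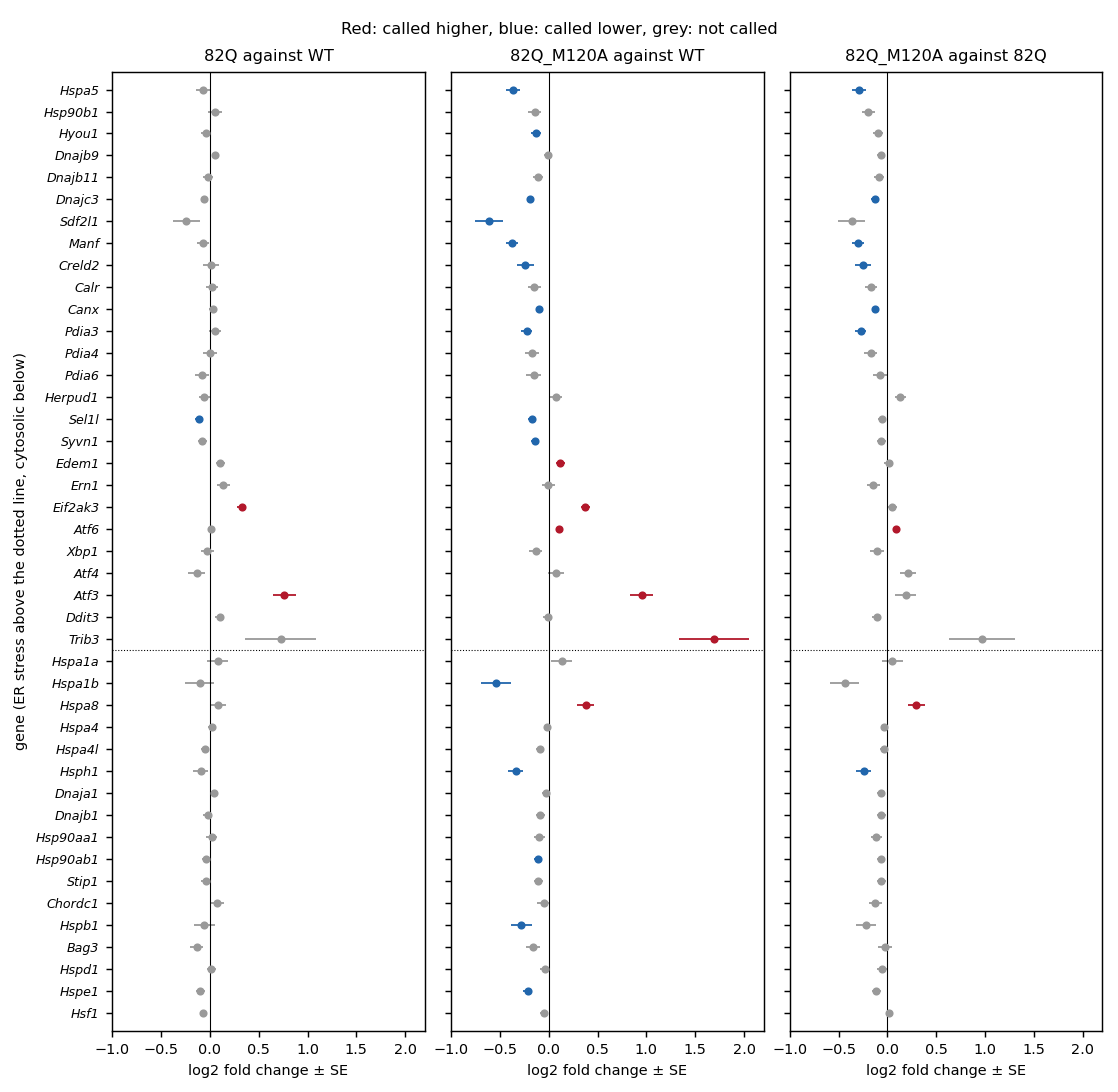
Log2 fold change of the 43 genes in 82Q against WT, 82Q_M120A against WT and 82Q_M120A against 82Q, as points with bars of 1 SE, red where called higher, blue where called lower and grey where not called. The ER chaperones lie near 0 in 82Q against WT and below 0 in both comparisons of 82Q_M120A, while Eif2ak3 and Atf3 are above 0 in both comparisons with WT.

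Some genes that missed the threshold with all libraries passed it when 1 library was left out. In 82Q_M120A against 82Q this held for Sdf2l1 (without WT-4 or 82Q_M120A-4, adjusted p = 0.0423 for the latter), Herpud1 (without 82Q_M120A-1, 0.0261), Atf4 (without 82Q_M120A-3, 0.0397) and Ddit3 (without 82Q_M120A-5, 0.0404). It also held there for Trib3 (without 82Q_M120A-1, 82Q_M120A-2 or 82Q_M120A-3, down to 0.0210), Hsp90b1 (without WT-4 or 82Q-4 as well), Hspa1b (without 82Q_M120A-4, 0.0167) and Hspe1 (without 82Q-4, 0.0417). In 82Q_M120A against WT it held for Stip1 (without WT-1, WT-2, 82Q-1, 82Q_M120A-4 or 82Q_M120A-5, down to 0.0345) and Bag3 (without WT-4 or 82Q_M120A-3, down to 0.0297). Hsp90aa1 passed against WT (0.0378) and against 82Q (0.0338) without 82Q_M120A-4. Without 82Q_M120A-4 and 82Q_M120A-5 together, a choice made after seeing the data, 13 of the 26 ER genes were lower in 82Q_M120A than in 82Q. In that setting 0 were higher, in place of 6 lower and 1 higher with all libraries. Of all tested genes 8.63% were lower and 10.3% higher with all libraries, and 55.54% of the genes called in that setting were higher. The share of all tested genes called in that setting is not given here, so the 13 are not set against a background. Because 82Q_M120A-4 was highest in its group for 12 of the 14 ER chaperones and isomerases, leaving it out lowers the group mean of those 12. Without 82Q-1 the count of ER genes called in 82Q_M120A against 82Q was 4, in place of 7. With 1 library left out, the genes called over the whole table in that comparison ran from 2562 to 3210, beside 3175 with all libraries. Scaling by library size only ended the calls in 82Q_M120A against WT of Hyou1 (0.192), Creld2 (0.0809), Syvn1 (0.0950), Hsp90ab1 (0.255) and Hspb1 (0.0906), and that of Sel1l in 82Q against WT (0.180). The choroid plexus covariate ended those of Edem1 (0.0513) and Hsp90ab1 (0.0732) against WT. It brought Sdf2l1 (0.0439), Hspa1b (0.00805) and Hspb1 (0.0433) under the threshold in 82Q_M120A against 82Q.

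Set side by side, the compartments are described by counts, and no test between them was run. In 82Q against WT, groups did not overlap for 4 of 26 ER genes and 0 of 17 cytosolic genes. The share of all tested genes was 16.6%. In 82Q_M120A against WT groups did not overlap for 9 ER and 3 cytosolic genes, beside 25.3%. In 82Q_M120A against 82Q they did not for 2 ER genes and 0 cytosolic genes, beside 12.1%. Only the ER count in 82Q_M120A against WT was above the share of all tested genes. The Purkinje, microglial and oligodendrocyte marker differences were present in 82Q and in 82Q_M120A. Between the mutant groups 2 of 6 Purkinje markers were higher in 82Q_M120A. Of 8 immediate early genes, which follow recent neuronal activity, 3 were lower in 82Q_M120A than in 82Q, and 3 were lower and 1 higher than in WT. Their summed level was 108.6 to 172.2 CPM in WT, 103.9 to 157.9 CPM in 82Q and 95.96 to 127.7 CPM in 82Q_M120A. The part of those cell types and of activity in the chaperone values was not tested.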

How the data were processed

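Total RNA from dissected cerebella was sequenced as TruSeq libraries on an Illumina HiSeq2500, per the labels' protocols and the design text. The deposited values are read counts per gene symbol that the authors made. The submitters' processing notes list HISAT2 2.0.1 and CASAVA 1.8, Subread with featureCounts, DESeq2 1.14.1 under R 3.3.3, and build mm10. Not given in the sources used here are the annotation, the strand setting and how reads with more than 1 position were counted. Columns name the group and no replicate number, so libraries are numbered by their place among the columns of the group.

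The counts of all 15 libraries were fitted with edgeR 4.0.16 in R 4.3.3 (TMM factors, filterByExpr, robust glmQLFit, group as the factor, two-sided test, 12 residual degrees of freedom). P-values were Benjamini-Hochberg adjusted over 16808 tested genes, with 0.05 as the threshold, and 7612 symbols were not tested. SE is the absolute log2 fold change over the square root of F. Levels are TMM-scaled CPM. The analysis was tested on simulated data. Depth of 38.3 to 99.4 mega counts keeps counting error small beside the common biological variation of 0.105 for genes with many counts. This does not hold for the scarcest members, such as Trib3 and Atf3, with WT means of 0.763 and 1.421 CPM.

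The 43 genes and the other lists were chosen with earlier results of these data known, so lists are described by counts and medians with no test. Values in every library are given for called members, up to 10 a compartment by smallest adjusted p, plus Hspa5, Xbp1, Ddit3, Hspa1a, Hspa1b and Hsf1. Up to 4 called genes a comparison are named of the other lists. Of 5 astrocyte and Bergmann glia markers 2 were higher and 1 lower in 82Q and in 82Q_M120A, each against WT. Against WT, granule cell markers were higher in 1 of 4 in 82Q and 3 of 4 in 82Q_M120A, and vascular markers lower in 1 of 5 in 82Q and 1 higher and 1 lower in 82Q_M120A. Immediate early genes were higher in 1 of 8 in 82Q. Of the brainstem and cerebellar nuclei markers 1 of 5 was higher in each, and of the meninges and fibroblast markers 0 of 5 were called. Gene positions are from GENCODE M21 and promoters from RefSeq (GRCm38.p6). Alternatives were each library left out, a choroid plexus covariate, the Hspa1 copies summed, DESeq2 1.42.0, limma-voom (limma 3.58.1), scaling by RLE or by library size only, all genes unfiltered, genes with a mean of 1 CPM or more, fits of only the groups compared, and an adjusted p under 0.01.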

Additional observations from a re-analysis of the deposited data

Results flagged for a closer look

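Of 129 pairs of a gene and a group, 2 had a library that stood apart from the other 4 by Dixon's criterion, where chance gives about 1 in 20, or 6.45 pairs. Xbp1 was at 125.5 CPM in WT-4, with the other WT libraries at 96.49 to 104.9, a gap of 0.711 of the range against a limit of 0.71. WT-4 was also the highest WT library for 18 of the 26 ER genes and the WT library with the least choroid plexus. Hspe1 was at 50.57 CPM in 82Q_M120A-3, with the others of that group at 55.1 to 55.95, a gap of 0.842 of the range. That library was lowest in its group for 17 of the 26 ER genes and 9 of the 17 cytosolic genes. It had little choroid plexus, at 28.6 CPM of summed markers. So had 82Q_M120A-2, 82Q_M120A-4 and 82Q_M120A-5, at 23.03 to 37.42 CPM, and 82Q_M120A-4 was highest in the group for 15 of the 26 ER genes.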

How the results depend on the processing

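No paired analysis was possible because the columns carry no replicate number, so the planned fit with a replicate block was not run. At an adjusted p under 0.01 the genes called fell to 1823 for 82Q against WT, to 4060 for 82Q_M120A against WT and to 1645 between the mutant groups, the ER genes called in the last to 2, and the cytosolic genes to 3 and 0 in the comparisons of 82Q_M120A with WT and 82Q. ER genes called in 82Q against WT were 5, in place of 3, with library size only, with only the groups compared, and without 82Q_M120A-4 and 82Q_M120A-5, which was chosen after seeing the data. ER genes called in 82Q_M120A against 82Q were 11 with DESeq2 and 13 without those 2 libraries, in place of 7, and cytosolic genes were 1 with only the groups compared, in place of 2. The main fit called 18.7% of all tested genes in 82Q against WT and 18.9% between the mutant groups. For library size only, only the groups compared, DESeq2 and the fit without those 2 libraries, no share of all tested genes is given. Their ER and cytosolic counts are therefore not set against a background. With each library left out in turn, the ER counts ran from 2 to 3, 11 to 18 and 4 to 10 in the 3 comparisons. The cytosolic counts ran from 0 to 0, 4 to 8 and 0 to 4. The last was 0 without 82Q-5, 82Q_M120A-2 or 82Q_M120A-5 and 4 without 82Q_M120A-4. The genes called ran from 2567 to 3319, 5450 to 6454 and 2562 to 3210. Atf4 in 82Q_M120A against WT turned to -0.1101 without the same 2 libraries, and the summed Hspa1 copies gave -0.3592 and -0.2996 where Hspa1a alone was positive, by construction of the sum. With library size only, 72.98% of genes called in 82Q against WT and 68.8% of those in 82Q_M120A against WT were higher, in place of 46.2% and 51.1%, with the median of all genes shifted by 0.05. In every alternative 2 of the 3 member calls of 82Q against WT were kept. For 82Q_M120A this was so for 12 of 21 against WT and for 2 of 9 against 82Q, Manf and Pdia3. Trib3, the scarcest member, has the largest standard error of the 43 in each comparison.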
